A study of Mus musculus with 4 samples.

Results

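Acid made by the vacuolar proton pump and the proteases that work in it were followed through 35 genes, out of 32285 genes listed in the files. The 35 genes are 17 subunits of the vacuolar ATPase (V-ATPase) with its accessory proteins, both partners of the lysosomal chloride-proton exchanger, 10 proteases, 2 lysosomal membrane proteins, 2 other hydrolases and 2 transcription factors. They were chosen by name and function, but with earlier results of these data known. All 35 were present in the files and had at least 20 unique molecular identifiers (UMIs, counts of captured RNA molecules) in each main comparison. Cells came from the lung and synovium of female mice on a C57BL/6 background at 4 months of age, either TNF+ (carrying a transgene of human TNF, mice that develop erosive arthritis and disease of the lung vessels) or TNF- (littermates without the transgene). Mice were pooled within a group before capture, 3 to 5 for lung and 5 to 10 for synovium, and live cells were sorted after lysis of red blood cells. Each of the 4 groups, a genotype in a tissue, is 1 droplet-based 3' RNA-sequencing library, so that genotype and library cannot be told apart. No difference below therefore has a replicate check, no p-value is given, and all intervals are 95% intervals that cover counting error only.

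The V-ATPase uses ATP to drive protons across a membrane. Its V1 sector, on the cytosolic side, splits ATP, and its V0 sector, within the membrane, carries the protons. Macrophages use it to acidify phagosomes and lysosomes, where cathepsins digest protein, while osteoclasts also place it in the membrane that faces bone, so that the acid dissolves mineral and secreted cathepsin K cuts collagen. TFEB and MITF are related transcription factors that bind E-box elements of the CLEAR type in promoters of many lysosomal genes. In the files these genes are measured as RNA only, and neither pump assembly, acidity nor protease activity was recorded.

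The promoters were read first for this motif. It is known from promoters of many lysosomal genes, and the 35 genes were chosen as pump and lysosomal genes. A share above that of all genes is therefore not independent of the choice of genes. RefSeq promoter sequences (GRCm38.p6, 250 bases before to 50 after the start) were found for 28 of the 35 genes. The 8-base CLEAR-type core TCACGTGA, which reads the same on both strands and contains the 6-base E-box CACGTG, was present in promoters of 6 of these 28 genes (21.4%) and of 1.12% of 27025 genes in the RefSeq table. The shorter E-box was present in promoters of 11 of 28 (39.3%), against 8.09% of all genes. The 6 genes are Atp6v0d1 and Atp6v0e of the V0 sector, Atp6v1a of the V1 sector, Clcn7, and the proteases Ctsa and Ctsd. Their sequences around the core are shown 5' to 3' on the strand of the gene, with every TCACGTGA in capitals. For Atp6v0d1, Atp6v1a and Clcn7 this is chr8:105566035-105566134 (minus strand), chr16:44139338-44139437 (minus strand) and chr17:25133321-25133420 (plus strand). For the other three, whose surroundings are annotated as exon in at least 1 transcript, a short stretch is given, at chr17:26676396-26676425 (Atp6v0e, plus strand), chr2:164833758-164833787 (Ctsa, plus strand) and chr7:142387899-142387928 (Ctsd, minus strand).
Atp6v0d1: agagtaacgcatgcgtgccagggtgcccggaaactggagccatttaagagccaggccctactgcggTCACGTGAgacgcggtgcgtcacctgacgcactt
Atp6v1a: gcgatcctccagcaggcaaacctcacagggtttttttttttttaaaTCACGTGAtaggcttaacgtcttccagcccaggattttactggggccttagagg
Clcn7: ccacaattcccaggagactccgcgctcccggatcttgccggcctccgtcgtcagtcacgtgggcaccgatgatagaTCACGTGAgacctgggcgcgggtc
Atp6v0e: gaTCACGTGAgcctctgttgacacttccgg
Ctsa: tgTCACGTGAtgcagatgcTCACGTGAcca
Ctsd: tcTCACGTGAcccgttgagggccaaacaag

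Counted from the RefSeq start base as 0, the first base of the core lay at -4 for Atp6v0d1, 2 for Atp6v0e, 6 for Clcn7, -13 for the first of the 2 cores of Ctsa, -99 for Ctsd and -132 for Atp6v1a. A match is a description of letters and was not tested for binding. The 6 genes differed in their ratios. Between TNF+ and TNF- synovial macrophage-like cells, the log2 ratio was 1.80 for Ctsd, 1.65 for Clcn7, 0.97 for Atp6v0e, 0.90 for Atp6v1a, 0.54 for Atp6v0d1 and 0.01 for Ctsa.

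The files give no cell types, so cells were clustered without the 35 genes and named from markers. A name ending in "-like" stands for such a cluster, and a different naming could shift any value. Between 3498 cells (TNF+ synovium) and 11083 cells (TNF+ lung) were kept per library, at a median of 8156 to 13104 UMIs per cell. The TNF+ synovium stood apart in quality: 17.6% of its barcodes were over the limit of 20% mitochondrial UMIs, against at most 3.78% in the others, and the part of this in the results was not tested. Any pair of libraries shared 5 to 21 cell barcodes, at most 0.304% of either. Total counts ran from 48454234 UMIs in the TNF+ synovium to 155989523 in the TNF+ lung. Macrophage-like cells, including monocyte-like cells, numbered 988 (TNF-) and 4758 (TNF+) in lung and 238 (TNF-) and 1011 (TNF+) in synovium. In pooled cells of a class, fewer cells of a subtype and less RNA per cell cannot be told apart.

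Macrophage-like cells had the highest summed level of the 35 genes of any named class in every library. Summed over the 35 genes, lung cells held 13059.6 CPM (the UMIs of the genes divided by all UMIs of the same cells, on the usual CPM scale) without the transgene (interval 13008 to 13112) and 14266 with it (14241 to 14292). Synovial cells held 8379 CPM without it (8280.3 to 8478) and 13728 with it (13669 to 13787). T, NK or innate lymphoid cell-like cells were lowest among the named classes compared, between 1789.7 and 2526 CPM. Mesenchyme-like cells (fibroblast, mural, and tendon or cartilage markers) lay between 3777 and 5021 CPM, and dendritic cell-like cells between 4471 and 6548 CPM. Against all other cells of the library, 22 of the 35 genes were at least 2-fold higher in macrophage-like cells of the TNF- lung (62.9%, against 11.7% of all genes tested). The count was 25 for TNF+ lung (background 10.0%). For synovium it was 19 in either library, against backgrounds of 17.5% (TNF-) and 8.15% (TNF+). Genes tested are those with at least 20 UMIs over both groups of cells.

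The share of the captured UMIs of the 35 genes that these cells held differed between libraries, as did their share of captured cells. Macrophage-like cells held 7.95% of the 35 genes' UMIs in the TNF- synovium, where they were 3.60% of cells and held 3.67% of all UMIs. In the TNF+ synovium they held 54.2%, as 28.9% of cells with 32.1% of all UMIs. In the TNF- synovium mesenchyme-like cells held most, 65.6%. In the lung, macrophage-like cells held 46.9% in the TNF- and 80.8% in the TNF+ library, as 11.9% and 42.9% of cells with 19.5% and 54.6% of all UMIs. Over all synovial cells the sum was 3865 CPM (TNF-) and 8121 CPM (TNF+), and over all lung cells 5424 and 9654 CPM.

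**Figure D1:**
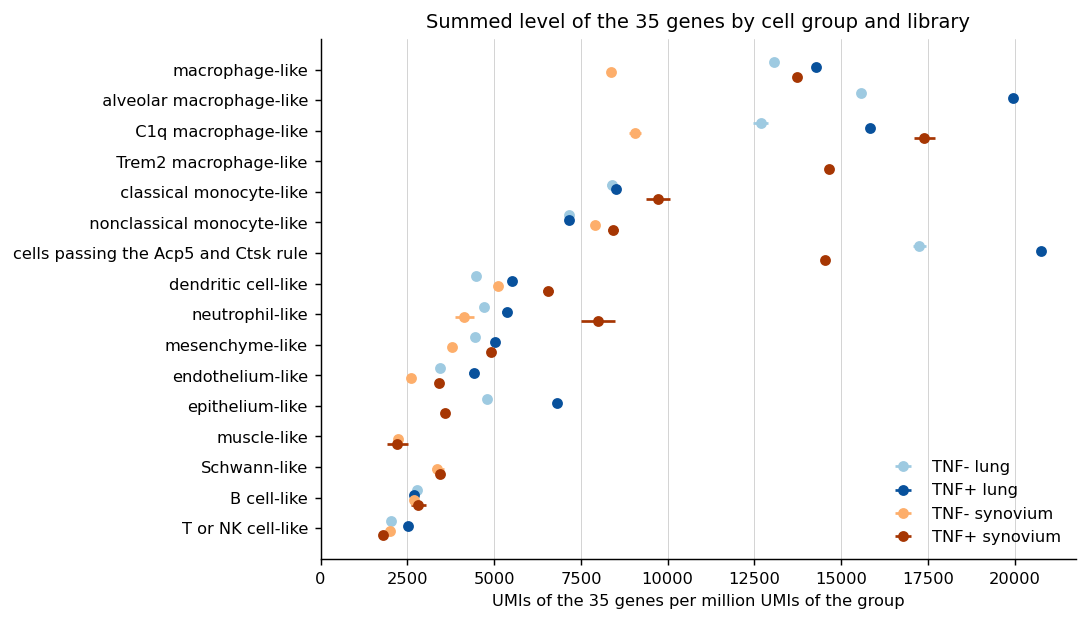
Summed CPM of the 35 genes (horizontal axis) for each cell group (rows), 1 point per library, with 95% Poisson intervals. Macrophage-like cells lie at 8379 to 14266 CPM, above the dendritic cell-like, mesenchyme-like and lymphocyte-like groups, and the TNF+ synovial C1q macrophage-like cells (17386 CPM) lie far above those of the TNF- synovium (9066 CPM).

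The first comparison asked whether synovial macrophage-like cells of TNF+ mice differ from those of TNF- mice. The sum was higher in TNF+ cells, 13728 against 8379 CPM, a log2 ratio of 0.71 (interval 0.69 to 0.73) or 1.64-fold. Both pump sectors were higher, the V1 sector 2.03-fold (2146 against 1055 CPM) and the V0 sector 1.87-fold (2618 against 1403 CPM), while the accessory proteins were 1.16-fold higher. The summed proteases were 1.64-fold higher, 7042 against 4292 CPM. Of the 35 genes, which lie on 19 chromosomes, 12 were at least 2-fold higher (34.3%, against 7.43% of 12095 genes tested) and 2 at least 2-fold lower (5.71%, against 23.6%). The median log2 ratio was 0.69 over the 35 genes and -0.32 over all genes tested, so that centring on all genes puts the sum at 1.03 and the number at least 2-fold higher at 18. The background of 7.43% is for ratios before centring, and the share of all genes after centring is not given. With dendritic cell-like cells, which were 419 in the TNF- and 84 in the TNF+ synovium, counted as macrophage-like, the log2 ratio of the sum was 1.14. Marker lists of other cell types went both ways. In TNF- cells all 15 fibroblast markers (1902 against 369 CPM summed), all 14 endothelial (295 against 55.1 CPM) and all 12 mast cell or basophil markers (626 against 20.2 CPM) were more abundant. In TNF+ cells the summed epithelial (192 against 89.6 CPM), T cell (143 against 22.7 CPM), NK or innate lymphoid cell (203 against 123 CPM) and megakaryocyte or platelet markers (716 against 511 CPM) were more abundant. Gene by gene, 11 epithelial markers were higher and 2 lower in TNF+ cells, and 5 and 3 megakaryocyte or platelet markers. Only 2 T cell markers were higher and 9 lower, and 5 and 6 NK or innate lymphoid cell markers, although their sums were higher. The part of all these markers in the ratios was not tested.

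The same comparison in the lung gave small ratios. With 14266 CPM (TNF+) against 13059.6 CPM (TNF-), the log2 ratio of the sum was 0.13 (0.12 to 0.13). None of the 35 genes was at least 2-fold higher in TNF+ cells (background 6.42% of 16574 genes) or lower (15.3%), and the median was -0.06, against -0.17 over all genes tested. The direction of the lung sum was not stable: it was -0.17 with cells of at most 5000 genes, -0.08 with each cell weighted equally and -0.15 without the cells that pass the osteoclast rule given later. The summed V-ATPase level of the class was 3496 against 3517 CPM, a ratio of -0.01 that became 0.16 when centred on all genes. Within each of the 4 lung subtypes compared the V-ATPase sum was higher in TNF+ cells, with ratios of 0.19 (0.18 to 0.21) in alveolar macrophage-like, 0.32 (0.26 to 0.38) in C1q macrophage-like, 0.14 (0.10 to 0.17) in nonclassical monocyte-like and 0.20 (0.14 to 0.25) in classical monocyte-like cells. The class value lies below all 4, and the subtypes' shares of the class differed between the libraries, with 401 of 988 TNF- and 586 of 4758 TNF+ cells alveolar macrophage-like. Other lung subclusters went both ways in the median V-ATPase share of a cell's UMIs. It was 0.301% in 438 TNF+ and 0.320% in 19 TNF- cells of one led by Lyz1, H2-M2 and Mmp12. In one led by Kcnip4, Egfem1 and Htr2c it was 0.330% (38 TNF+ cells) and 0.351% (15 TNF- cells). In cycling-like cells it was 0.373% (45 TNF+) and 0.342% (27 TNF-). Marker lists of other cell types went both ways. Summed epithelial (1056 against 576 CPM), erythroid (862 against 82.3 CPM), endothelial (566 against 141 CPM) and mesothelial markers (267 against 61.6 CPM) were more abundant in the TNF- lung cells, and B or plasma cell (118 against 223 CPM) and megakaryocyte or platelet markers (155 against 324 CPM) less so. Gene by gene, 12 epithelial, 6 erythroid, 13 endothelial and 6 mesothelial markers were lower in TNF+ cells, and 3, 2, 1 and 1 higher. Of the B or plasma cell markers 6 were higher and 6 lower. Only 2 megakaryocyte or platelet markers were higher and 8 lower, although their sum was higher. The part of all these markers was not tested.

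**Figure D2:**
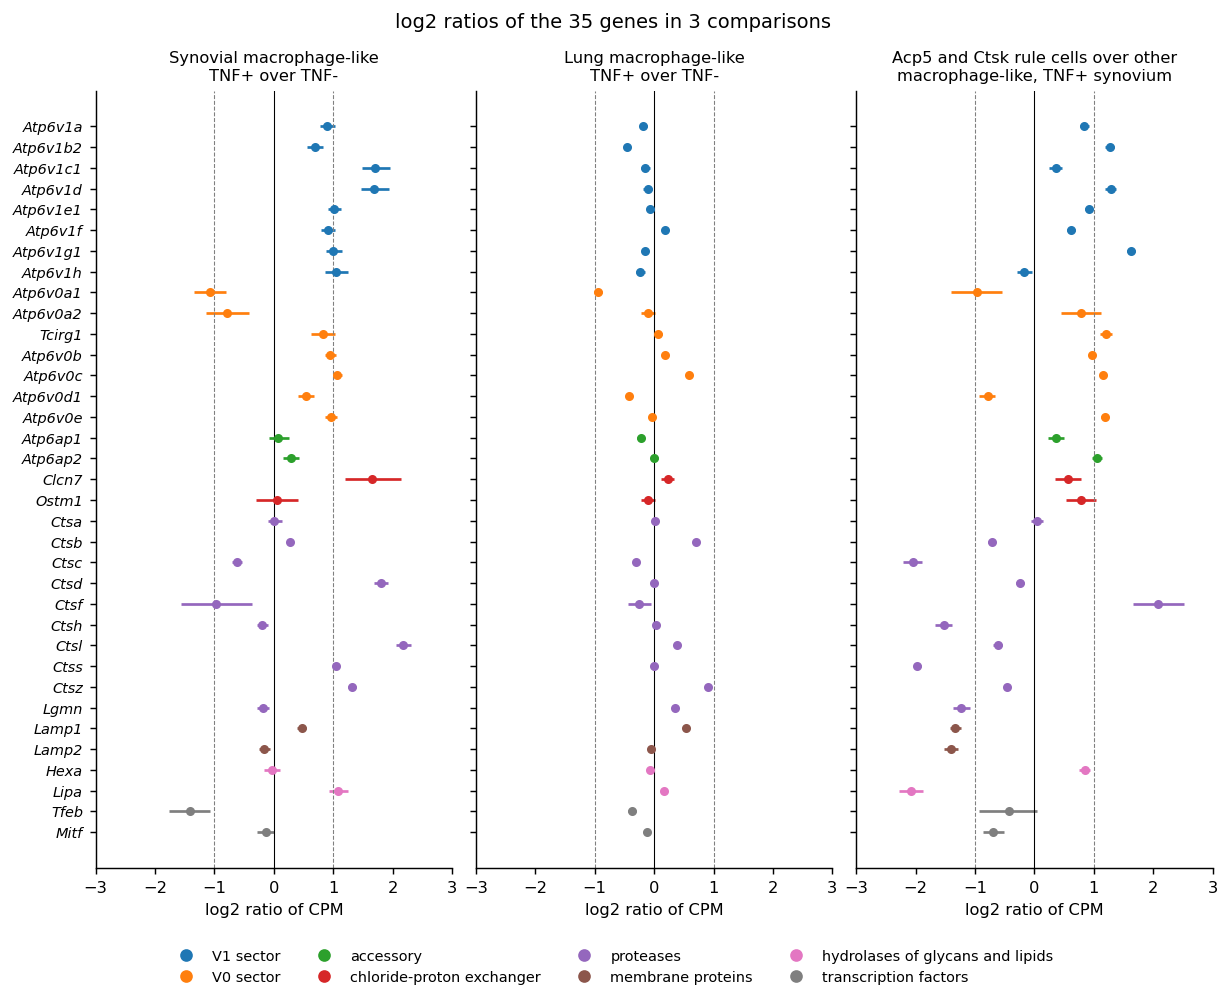
Log2 ratios of CPM (horizontal axes) for each of the 35 genes (rows, coloured by role) in 3 comparisons, with 95% counting intervals and dashed lines at 2-fold. Most V-ATPase genes lie right of 0 in the synovial comparison, near 0 in the lung comparison and right of 0 in the cells passing the Acp5 and Ctsk rule described later, where Ctsc, Ctsh, Ctss, Lgmn, Lamp1, Lamp2 and Lipa lie left of -1.

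The V1 sector holds the ATP-splitting head, whose catalytic and regulatory subunits are encoded by Atp6v1a and Atp6v1b2, and the stalks that join it to the membrane. In macrophage-like cells Atp6v1a was at 187 and 166 CPM in the TNF- and TNF+ lung and at 165 and 306 CPM in the TNF- and TNF+ synovium. Atp6v1b2 was at 312 and 227 CPM in the TNF- and TNF+ lung and at 143 and 229.6 CPM in the TNF- and TNF+ synovium. For both genes the TNF+ level was above the TNF- level in the synovium and below it in the lung class, with intervals apart from 0 in each tissue. In all, 9 of the 35 genes had intervals on opposite sides of 0 in lung and synovium, against 15.6% of 11987 genes tested in both. The lung direction was that of the mixed class: the V1 sector as a whole had a ratio of -0.14 (-0.16 to -0.12) there, but 0.10 (0.07 to 0.12) in alveolar macrophage-like, 0.24 (0.15 to 0.34) in C1q macrophage-like, 0.10 (0.05 to 0.16) in nonclassical monocyte-like and 0.17 (0.08 to 0.26) in classical monocyte-like cells. Other lung subclusters were not compared in this way.

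Genes of the V1 rotor and stalks included the largest ratios of the pump in the synovium. Atp6v1c1, whose product helps V1 and V0 to join, was at 89.1 and 80.3 CPM in the TNF- and TNF+ lung and at 51.1 and 168 CPM in the TNF- and TNF+ synovium, a synovial log2 ratio of 1.71 (1.49 to 1.95). Atp6v1d, the central rotor, was at 82.1 and 76.0 CPM in the TNF- and TNF+ lung and at 49.6 and 159.9 CPM in the TNF- and TNF+ synovium, a ratio of 1.69 (1.46 to 1.93). In both cases the TNF+ synovium was the highest of the 4 libraries and the TNF- synovium the lowest. The peripheral stalk gene Atp6v1e1 was at 295 and 281 CPM in the TNF- and TNF+ lung and at 222 and 451 CPM in the TNF- and TNF+ synovium, and its partner Atp6v1g1 at 285 and 257 CPM, and 155 and 309 CPM. Atp6v1f followed the same order in the synovium, with 198 and 371 CPM in the TNF- and TNF+ library, and 227 and 257 CPM in the lung. Atp6v1h, which regulates V1, was at 89.3 and 75.8 CPM in the TNF- and TNF+ lung and at 72.9 and 151 CPM in the TNF- and TNF+ synovium. All 8 V1 genes were thus higher in the TNF+ than in the TNF- synovium.

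The V0 sector carries the proton-conducting ring and the a subunit, which exists as isoforms that place the pump in different membranes. Atp6v0c, which encodes the ring's main subunit, was at 465 and 702 CPM in the TNF- and TNF+ lung and at 562 and 1178 CPM in the TNF- and TNF+ synovium. It was higher in the TNF+ library of both tissues, with log2 ratios of 0.59 (0.56 to 0.63) and 1.07 (1.0 to 1.14). Since 2 annotated pseudogenes carry its name, reads shared with them could be lost from its count. Atp6v0b, another ring subunit, was at 314 and 358 CPM in the TNF- and TNF+ lung and at 316 and 609.8 CPM in the TNF- and TNF+ synovium. Atp6v0e was at 337 and 328 CPM in the lung, and at 233 and 456 CPM in the TNF- and TNF+ synovium.

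The a isoforms differed in direction. Tcirg1 encodes a3, the isoform whose loss causes osteopetrosis, and was at 97.5 and 102 CPM in the TNF- and TNF+ lung and at 66.6 and 118 CPM in the TNF- and TNF+ synovium, a synovial ratio of 0.82 (0.62 to 1.03). Atp6v0a1 encodes a1 and was lower in the TNF+ library of both tissues, at 125 and 65.1 CPM in the TNF- and TNF+ lung (ratio -0.95, -1.02 to -0.88) and at 49.6 and 23.6 CPM in the TNF- and TNF+ synovium (ratio -1.07, -1.34 to -0.80). Atp6v0a2 encodes a2 and was at 36.3 and 33.6 CPM in the lung and at 26.6 and 15.4 CPM in the synovium. Atp6v0d1, the d subunit that couples the ring to the stalk, was at 253 and 189.8 CPM in the TNF- and TNF+ lung and at 149.8 and 218 CPM in the TNF- and TNF+ synovium. The accessory genes had small ratios in the synovium, with Atp6ap1 at 105 and 111 CPM and Atp6ap2 at 167 and 204 CPM in the TNF- and TNF+ library. In the lung Atp6ap1 was at 160.0 and 137 CPM and Atp6ap2 at 161 and 162 CPM.

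The chloride-proton exchanger balances the charge that the pump moves, with Clcn7 as the exchanger and Ostm1 as its partner. Clcn7 was at 41.1 and 48.2 CPM in the TNF- and TNF+ lung and at 12.4 and 39.0 CPM in the TNF- and TNF+ synovium, a synovial log2 ratio of 1.65 (1.19 to 2.14) that rests on 41 UMIs in the TNF- library. Ostm1 was at 38.0 and 35.1 CPM in the lung and at 24.8 and 25.7 CPM in the synovium. The partners therefore had different synovial ratios, 1.65 against 0.05 (-0.30 to 0.41).

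Proteases split into groups in the synovium. Ctsl, a cysteine protease with broad action on matrix and antigen, was at 183 and 239 CPM in the TNF- and TNF+ lung and at 150.4 and 680.4 CPM in the TNF- and TNF+ synovium, where it had the largest ratio of the 35 genes, 2.18 (2.05 to 2.31). The gene lies on chromosome 13, from 64359337 to 64370890 (GRCm38, minus strand). Ctsd, the main aspartic protease of lysosomes, was at 2418 and 2425 CPM in the TNF- and TNF+ lung and at 175 and 608 CPM in the TNF- and TNF+ synovium, a synovial ratio of 1.80 (1.68 to 1.92). It lies on chromosome 7, from 142375911 to 142388038 (minus strand). Ctsz, a carboxypeptidase, was at 533 and 1002 CPM in the TNF- and TNF+ lung and at 451 and 1124 CPM in the TNF- and TNF+ synovium. It was the protease with the largest lung ratio, 0.91 (0.88 to 0.94), beside 1.32 (1.24 to 1.39) in the synovium. Ctss, which trims the invariant chain of MHC class II in antigen-presenting cells, was at 1908 and 1893 CPM in the TNF- and TNF+ lung and at 1085 and 2238 CPM in the TNF- and TNF+ synovium. Ctsb was at 904 and 1465 CPM in the lung, a ratio of 0.70 (0.67 to 0.72), and at 1045 and 1265 CPM in the synovium.

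The other proteases were level or lower in TNF+ synovial cells. Ctsc, which activates granule serine proteases, was at 689.8 and 555 CPM in the TNF- and TNF+ lung and at 509 and 331 CPM in the TNF- and TNF+ synovium. Ctsh, an aminopeptidase, was at 295 and 301 CPM in the lung and at 333 and 290.3 CPM in the synovium. Lgmn, the asparaginyl endopeptidase legumain, was at 212 and 271 CPM in the lung and at 303 and 267 CPM in the synovium. None of these 3 genes reached 2-fold in the synovium, and relative to the median of all genes (-0.32) only the ratio of Ctsc, -0.62, stayed on the lower side. Ctsa, which also protects lysosomal sialidase, was at 350.1 and 355 CPM in the lung and at 230.3 and 232 CPM in the synovium. Ctsf was scarce in macrophage-like cells, at 14.1 and 11.9 CPM in the lung and 10.9 and 5.54 CPM in the synovium.

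Among the remaining genes, Lamp1 was at 589 and 853 CPM in the TNF- and TNF+ lung, a ratio of 0.53 (0.51 to 0.56), and at 483 and 667 CPM in the TNF- and TNF+ synovium. Lamp2, its relative in the lysosomal membrane, was at 323 and 309 CPM in the lung and at 374 and 334 CPM in the synovium. Lipa, the acid lipase that frees cholesterol and fatty acids, was at 266 and 300.5 CPM in the lung and at 107 and 226 CPM in the synovium, a synovial ratio of 1.08 (0.92 to 1.24). Hexa, a subunit of hexosaminidase, was at 285 and 270.3 CPM in the lung and at 185 and 181 CPM in the synovium. The transcription factor Tfeb was lower in the TNF+ library of both tissues, at 121 and 93.2 CPM in the lung and at 35.7 and 13.3 CPM in the synovium, a synovial ratio of -1.42 (-1.76 to -1.08). Mitf was at 374 and 343 CPM in the lung and at 135 and 122 CPM in the synovium. In these TNF+ synovial cells 22 of the 35 genes had an interval above 0, against 17.6% of all genes tested, and the width of an interval follows the gene's count.

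The class mixes subtypes, and the mix differed between the libraries. In the TNF+ synovium 482 of the 1011 cells were Trem2 macrophage-like, against 1 cell in the TNF- synovium, and 258 belonged to an unnamed subcluster led by Sdc1, Il7r and Flrt3, against 2. The sum was at 14648 CPM (14569 to 14727) in the Trem2 macrophage-like cells, 13025 CPM (12911 to 13141) in the unnamed subcluster and 9712 CPM (9379 to 10054) in the classical monocyte-like cells. These groups had too few TNF- cells for a comparison between genotypes. In the lung the highest sum, 28777 CPM (28645 to 28909.6), was in 168 TNF+ cells of an unnamed subcluster led by Mmp12, Spp1 and Lyz1.

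The C1q macrophage-like subtype could be compared in both tissues. Leading genes of its synovial subcluster included Retnla and Ccl7 but also Dcn and Smoc2, which led or marked mesenchyme-like clusters, and their part in the ratios was not tested. In the synovium (48 TNF+ and 85 TNF- cells) the sum was 17386 CPM (17086 to 17690.1) against 9066 CPM (8897 to 9238), a log2 ratio of 0.94 (0.90 to 0.98), at nearly equal median depth of 12269.5 and 12360.0 UMIs. Here 13 of the 35 genes were at least 2-fold higher (37.1%, background 7.82%) and 1, Ctsh, at least 2-fold lower (2.86%, background 14.6%). Ctsd led with a ratio of 2.93, from 247 to 1873 CPM, followed by Ctsl with 1.87, Clcn7 with 1.61 and Ctsb with 1.5. Lgmn and Lamp1, below 2-fold in the class as a whole, had ratios of 1.12 and 1.12 here. In lung C1q macrophage-like cells (443 TNF+ and 70 TNF- cells) the ratio of the sum was 0.32 (0.29 to 0.35), with 3 genes at least 2-fold higher, namely Ctsd (1.69), Ctsz (1.47) and Ctsl (1.08), against a background of 8.12%. Atp6v0a1 alone among the 35 was at least 2-fold lower there, with a ratio of -1.37 (background 10.2%). Nearly all of these lung cells fell in different subclusters by genotype, 437 TNF+ cells in one led by Ccl8 and Cxcl13 and 70 TNF- cells in one led by Mgl2 and F13a1.

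Nonclassical monocyte-like cells of the synovium had a sum of 8425 CPM (TNF+) against 7907 CPM (TNF-), a ratio of 0.09 (0.06 to 0.13). Most of the 198 TNF+ and 150 TNF- cells fell in different subclusters, led by Cd300e, Spn and Cyfip2 in the TNF+ and by Ms4a4c, Cd300e and Ear2 in the TNF- library, and their median depths were 5879 and 13462 UMIs. Lipa was an exception, at 665 against 108 CPM, a ratio of 2.62. With Mitf it made the 2 genes at least 2-fold higher, of 34 tested (background 6.16%), while Atp6v0a2, Ctsc and Ctsh were at least 2-fold lower (background 14.2%). In lung nonclassical monocyte-like cells (2921 TNF+ and 342 TNF- cells) the sums were 7145 and 7168 CPM. Of these, 2070 and 747 TNF+ cells fell in subclusters led by Ccdc192 and by Eno3 and 311 TNF- cells in one led by Cd300e and Ace.

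Alveolar macrophage-like cells carried more of these transcripts than monocyte-like cells in either genotype. Their sum was 15565 CPM (15489.8 to 15640.1) in 401 TNF- and 19939.6 CPM (19880.4 to 19999) in 586 TNF+ cells, a ratio of 0.36 (0.35 to 0.37). They too fell mostly in different subclusters, 573 of the TNF+ cells in one led by Egfem1 and Plet1 and 384 of the TNF- cells in one led by Kcnip4 and Htr2c, at median depths of 37588 and 26227 UMIs. None of the 35 genes was at least 2-fold higher (background 4.41%) or lower (background 11.4%). The nearest were Atp6v0c with 0.85, Ctsz with 0.82 and Atp6v0a1 with -0.70. Ctsd stood at 3628 and 5614 CPM in the TNF- and TNF+ cells.

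Candidate osteoclasts were taken by a rule on the markers Acp5 (tartrate-resistant acid phosphatase) and Ctsk (cathepsin K), at least 5 UMIs of each, neither of which is among the 35 genes. In the TNF+ synovium 109 cells passed, and none of the 6620 cells of the TNF- synovium did, which allows a share of up to 0.0453% (3 counts). The rule did not select 1 kind of cell. Of the 109 cells, 71 lay in an unnamed cluster led by Acp5, Mmp9, Ctsk and Atp6v0d2, 25 lay among mesenchyme-like cells, 12 among macrophage-like cells and 1 elsewhere. The 71 cells had UMIs of all 12 osteoclast genes listed (among them Oscar, Ocstamp and Calcr), 6076 CPM in sum, whereas the 25 had 281 CPM, 11626 CPM of the collagen gene Col1a1 and no UMI of Spi1, a myeloid transcription factor. The 12 had 192 CPM of the osteoclast genes, beside 144 CPM in the other macrophage-like cells of that library. The 25 and the 12 thus lack the marker levels of osteoclasts, so the 109 are called rule cells. Just inside the threshold, where the lower count of Acp5 and Ctsk was 5 or 6, 17 of 20 cells were mesenchyme-like, and just outside, at 3 or 4, 27 of 41. The same cluster held 121 other TNF+ cells and 10 TNF- cells, of median depth 1442 and 1858 UMIs, with UMIs of 9 and 2 of the 12 osteoclast genes, 489.6 and 32.4 CPM in sum. UMIs of all 12 genes were also found in mesenchyme-like cells of the synovium, at 154 CPM (TNF-) and 254 CPM (TNF+). The same held for TNF- lung macrophage-like cells that did not pass the rule, at 664 CPM.

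In the lung the rule picked other cells: 624 of the TNF+ and 46 of the TNF- lung, of which 476 and 39 were alveolar macrophage-like. Their V-ATPase UMIs per protease UMI were 0.371 and 0.434, beside 0.445 and 0.474 in other lung macrophage-like cells. They are not part of the next comparison.

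The next comparison set the 109 rule cells of the TNF+ synovium against the 999 other macrophage-like cells of the same library. The summed level of the 35 genes hardly differed, 14519 against 13553 CPM, a log2 ratio of 0.10 (0.09 to 0.11), but its makeup did. V-ATPase subunits were higher, 9988 against 5050.3 CPM (ratio 0.98, 0.97 to 1.0). The proteases among the 35 genes, which do not include Ctsk, were lower, 3584 against 6913 CPM (ratio -0.95, -0.97 to -0.92). The membrane proteins Lamp1 and Lamp2 together were also lower, 386 against 988 CPM (-1.36, -1.43 to -1.28). Of the 35 genes 8 were at least 2-fold higher (22.9%, against 24.3% of 12167 genes tested) and 7 at least 2-fold lower (20%, against 14.6%), shares near the background. The median log2 ratio was 0.36, against 0.25 over all genes tested, so centring on all genes turns the ratio of the sum to -0.15 and leaves 4 genes at least 2-fold higher. The share of all genes after centring is not given.

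The 8 higher genes were 7 of the 17 pump genes (41.2%, background 24.3%) and Ctsf, and the 7 lower ones held no pump gene (background 14.6%). In the 71 cells of the Acp5 Mmp9 cluster, a subset chosen after the values were seen, the contrast was larger. Their V-ATPase sum was 12774 CPM, 2.53-fold that of other macrophage-like cells, and their protease sum 2731 CPM, or 0.395-fold. There 13 of the 35 genes were at least 2-fold higher (37.1%, background 22.8%) and 10 at least 2-fold lower (28.6%, background 19.1%). By contrast the 25 mesenchyme-like cells had a sum of 5839 CPM over the 35 genes, beside 4912 CPM in all mesenchyme-like cells. The median depth was 36802 UMIs in the 109 cells and 14300.0 in the others. Keeping only macrophage-like cells at least as deep as the shallowest rule cell left 932 of the 999 and so did not close this gap, whose part in the ratios was not tested. With an upper limit of 5000 genes per cell only 38 of the 109 cells stay, and 1 gene is at least 2-fold higher, a count without its own background.

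Among pump genes, Atp6v1g1 was at 946 CPM in the 109 cells and 307 CPM in other macrophage-like cells, the largest pump ratio at 1.62 (1.56 to 1.69), and at 1236 CPM in the 71 cells. Atp6v0c was at 2606 against 1172 CPM (1.15), Atp6v0e at 1019 against 451 CPM (1.18) and Tcirg1 at 272 against 118 CPM (1.21, 1.10 to 1.31). Atp6v1d and Atp6v1b2 had ratios of 1.28 and 1.27, and Atp6ap2 of 1.06. Of the 17 pump genes 14 had an interval above 0 (42.7% of all genes tested did) and 3 an interval below 0 (25.5% of all genes), namely Atp6v1h (-0.17), Atp6v0a1 (-0.96) and Atp6v0d1 (-0.79).

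Isoforms of the same subunit went in opposite directions. For the d subunit, Atp6v0d1 was at 127 CPM in the rule cells and 219 CPM in other macrophage-like cells, whereas Atp6v0d2, an isoform known from osteoclasts and not among the 35 genes, was at 581 and 10.9 CPM, a ratio of 5.74. For the a subunit, Atp6v0a1 (a1) was at 12.1 and 23.5 CPM and Tcirg1 (a3) at 272 and 118 CPM. In the 71 cells the a1 and a3 genes were at 7.27 and 364 CPM. Atp6v0d2 was also found in lung macrophage-like cells, at 527 (TNF-) and 373 CPM (TNF+), against 1.51 (TNF-, 5 UMIs) and 11.7 CPM (TNF+) in synovial ones.

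**Figure D3:**
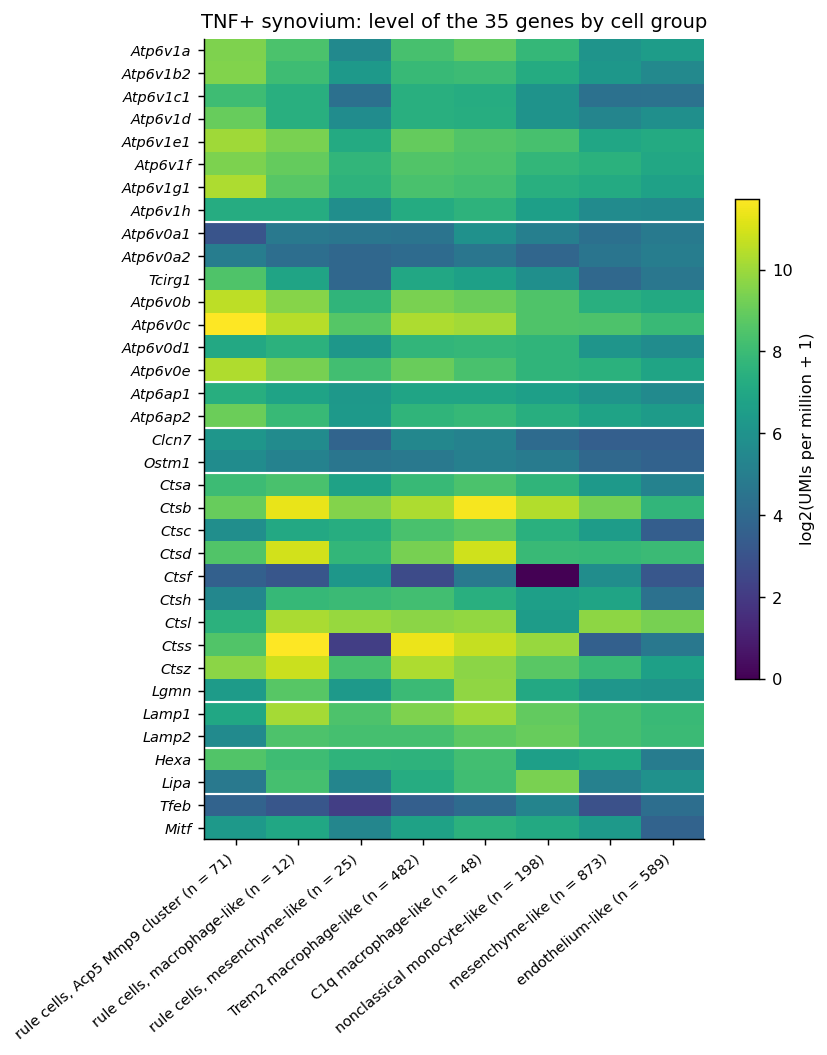
Levels of the 35 genes (rows, white lines between role groups) in 8 cell groups of the TNF+ synovium (columns, with the number of cells), as log2 of CPM plus 1. The 71 rule cells of the Acp5 Mmp9 cluster are brightest for most V-ATPase genes, such as Atp6v0c at 3392 CPM, and darker than the Trem2 macrophage-like cells for Ctss, Ctsc, Ctsh, Lamp1, Lamp2 and Lipa.

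Proteases other than Ctsa and Ctsf were lower in the rule cells. Ctss was at 564 CPM against 2209.9 CPM (ratio -1.97, -2.03 to -1.91), and at 374 CPM in the 71 cells. Ctsc was at 81.3 against 336 CPM (-2.05, -2.21 to -1.89) and Ctsh at 101 against 292 CPM (-1.53, -1.67 to -1.38). Lgmn, Ctsb, Ctsl, Ctsz and Ctsd had ratios of -1.23, -0.72, -0.62, -0.47 and -0.24. Ctsf had the largest ratio of all, 2.08 (1.65 to 2.52), but 62 of its 100 UMIs came from the 25 mesenchyme-like cells, where it was at 72.7 CPM, against 11.2 CPM in the 71. Ctsk itself, part of the rule, is not counted among the proteases and was at 7964 CPM in the 109 cells.

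The other lysosomal genes went both ways. Lipa was at 52.9 against 224 CPM (-2.08, -2.28 to -1.88), Lamp2 at 126 against 333 CPM (-1.40, -1.53 to -1.28) and Lamp1 at 259.9 against 655 CPM (-1.33, -1.42 to -1.24). Hexa was higher, at 321 against 179 CPM (0.85). Clcn7 was at 57.4 against 38.7 CPM (0.57, 0.35 to 0.79) and Ostm1 at 43.9 against 25.4 CPM (0.79, 0.53 to 1.04), so both exchanger genes lay on the side of the pump. Mitf was at 75.5 against 122 CPM (-0.70), and Tfeb at 9.99 against 13.5 CPM, with an interval of -0.94 to 0.05.

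The balance of pump and protease transcripts was then compared between cell groups. Since 3' UMIs are not divided by transcript length, the quotient is read between cell groups only. It leaves out Ctsk, which is part of the rule. In the 109 rule cells the level of Ctsk, given above, was larger than that of the 10 counted proteases together. A quotient that included Ctsk would therefore be lower in these cells than the values below, as would the shares of single cells. Named macrophage-like subtypes with at least 48 cells held between 0.351 (TNF- lung C1q macrophage-like) and 0.80 (TNF+ lung classical monocyte-like) V-ATPase UMIs per protease UMI. In the TNF+ synovium the 25 classical monocyte-like cells were at 1.07 (0.989 to 1.15) and the unnamed subcluster led by Sdc1 at 0.823 (0.807 to 0.838). The 109 rule cells held 2.79 (2.74 to 2.84). The 71 cells of the Acp5 Mmp9 cluster reached 4.68 (4.57 to 4.79), and the 25 and 12 rule cells found elsewhere 0.678 and 0.515. The 10 TNF- cells of that cluster, at a sum of 3077 CPM, had a quotient of 3.95 (3.08 to 5.12), and its 121 other TNF+ cells 1.41 (1.34 to 1.49). High quotients were also found in cells with few transcripts of either kind, such as 4.08 (3.60 to 4.64) in TNF+ synovial T, NK or innate lymphoid cell-like cells, whose sum was 1789.7 CPM. Neutrophil-like cells were at 2.14 (2.02 to 2.26) and 1.40 (1.32 to 1.47) in the TNF- and TNF+ lung. In the TNF- and TNF+ synovium they were at 2.35 (1.99 to 2.78) and 1.41 (1.23 to 1.61), on 27 and 24 cells. At the level of single cells, 74 of the 109 rule cells had more V-ATPase than protease UMIs (67.9%, Clopper-Pearson interval 58.3 to 76.5%). Of the 71 cells, 70 had more V-ATPase than protease UMIs (98.6%, 92.4 to 100%), as had 3 of the 25 and 0 of the 12, against 246 of 999 other macrophage-like cells (24.6%, 22.0 to 27.4%). Thinned to 5000 UMIs per cell, the shares were 70.4% (60.8 to 78.8%) for the rule cells, 97.1% (90.1 to 99.7%) for those of the Acp5 Mmp9 cluster and 27.1% (24.3 to 30.1%) for other macrophage-like cells, leaving out 1, 1 and 73 shallower cells.

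**Figure D4:**
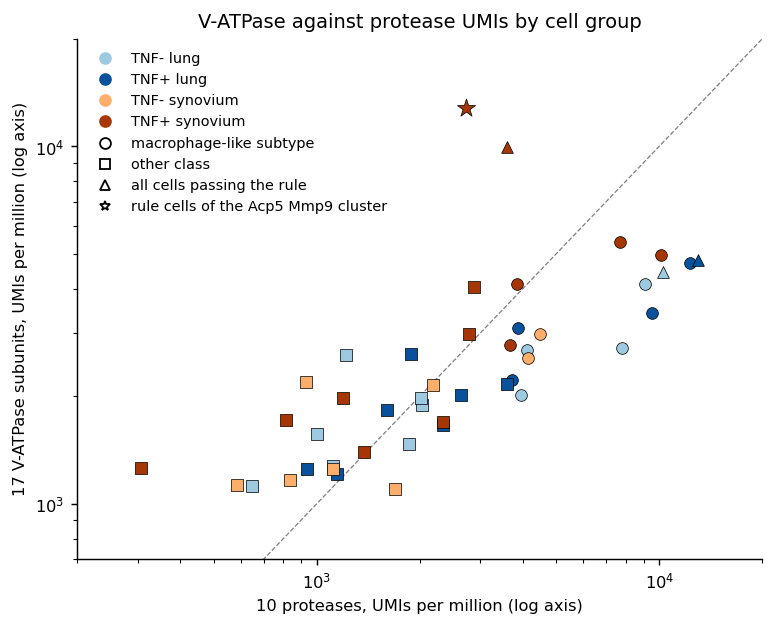
CPM of the 17 V-ATPase subunits (vertical, log axis) against those of the 10 proteases without Ctsk (horizontal, log axis), 1 point per cell group and library, with a dashed line where both are equal. Cells passing the rule in the TNF+ synovium (triangle at 9988 and 3584 CPM, star for the 71 cells at 12774 and 2731 CPM) lie above the line, and alveolar and C1q macrophage-like cells lie below it.

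Mesenchyme-like cells of the synovium, the largest other source, were compared for the same genes (873 TNF+ and 4151 TNF- cells). The sum was 4912 CPM (TNF+) against 3777 CPM (TNF-), a ratio of 0.38 (0.37 to 0.39). The 2 libraries differed in the clusters they filled within this class: one led by Prg4, Mmp3 and Saa3 held 328 TNF+ and 1 TNF- cell, while the largest, led by Cxcl14 and Smoc2, held 22 TNF+ and 1103 TNF- cells. Mural (1844 against 761 CPM) and tendon or cartilage markers (3010.0 against 1299 CPM) were more abundant in the TNF+ cells, and fibroblast markers were at 41462 against 41524 CPM. Of the 35 genes 5 were at least 2-fold higher (14.3%, background 10.5%) and 1, Tfeb, at least 2-fold lower (2.86%, background 26.1%). Ctsc was at 88.1 against 4.88 CPM (ratio 4.17, 3.99 to 4.36) and Lgmn at 70.1 against 13.9 CPM (2.33, 2.20 to 2.47). Ctss was at 11.1 against 2.55 CPM (2.12), Atp6v0c at 345 against 162 CPM (1.09) and Ctsa at 77.8 against 38.3 CPM (1.02). Of 18 macrophage or monocyte markers 10 were higher and 7 lower in these TNF+ cells, 321 against 241 CPM summed. Lyz2 was at 118 against 17.1 CPM, C1qa at 2.92 against 0.612 CPM and Csf1r at 6.14 against 5.36 CPM. Their part in these ratios was not tested. Ctsl, highest in mesenchyme-like cells among the classes of both synovial libraries, was at 801 and 839 CPM in the TNF- and TNF+ cells.

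Other genes of the pathway were counted from a list of 54 lysosomal and pump genes outside the 35. In synovial macrophage-like cells 48 could be tested, of which 7 were at least 2-fold higher (14.6%, background 7.43%) and 2 lower (4.17%, background 23.6%), with a median of -0.01. In the lung 2 of 50 were at least 2-fold higher (4.00%, background 6.42%) and 2 lower (4.00%, background 15.3%), with a median of -0.28. In the rule cells 10 of 48 were at least 2-fold higher (20.8%, background 24.3%) and 3 lower (6.25%, background 14.6%), with a median of -0.13. Single genes of the list differed. Tfec, a relative of Mitf, was at 42.8 against 11.8 CPM in TNF+ and TNF- synovial macrophage-like cells (1.86, 1.39 to 2.36), while Tfe3, a relative of Tfeb, was at 43.2 against 63.8 CPM (-0.56). Psap, the saposin precursor, was at 941 against 1747 CPM (-0.89) and Grn at 383 against 232 CPM (0.72). Mcoln1, the lysosomal calcium channel, had a ratio of 0.80 on 23 UMIs in the TNF- library. In the rule cells Psap, Grn, Tfec, Tfe3 and Mcoln1 had ratios below 0, between -0.75 and -0.29.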

How the data were processed

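Lung and synovial cells were sorted for live cells and captured by droplet (10x Genomics 3' kit), as 1 library per group. The deposited values are raw counts, whole numbers of UMIs for each of 32285 genes in each barcode. The submitters' processing notes name Cell Ranger 7.0.1 and mm10 (GRCm38). By default this tool drops reads that match several genes, which can lower genes with close copies.

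Cells with at least 200 genes and at most 20% mitochondrial UMIs were kept, with no upper limit on genes. Doublets were not removed, except in an alternative. The libraries of each tissue were clustered with Scanpy 1.11.5 and leidenalg 0.10.2, without the 35 genes, the pathway and osteoclast lists, Acp5 and Ctsk among the variable genes. No cell annotation was used from the study, and the naming thresholds were set after the clusters were seen. UMIs were summed over the cells of a group and library and divided by all UMIs of those cells (CPM), with exact Poisson intervals for levels, exact binomial (Clopper-Pearson) intervals for shares and conditional binomial intervals for log2 ratios. PCR duplicates are removed by UMIs, but intervals and floors cover counting error only. A gene was tested with at least 20 UMIs over both groups and counted as higher or lower from 2-fold. The ratio script was tested on simulated counts. The limit for a count of 0 uses 3 counts.

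All 35 genes are given by role, with values in more than 1 comparison for the 8 genes with the largest log2 ratio in each of the 3 main comparisons, and for 8 genes of the pathway list, some of which are not reported here. Members, genes and lists were chosen with earlier results of these data known. Gene positions come from GENCODE vM21. Alternatives were other filters, doublet removal, equal weights, centring, clustering resolution, other rule thresholds and other minimum counts. Their effect is given in the closing section.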

Additional observations from a re-analysis of the deposited data

Results flagged for a closer look

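In macrophage-like cells, 9 of the 35 genes had TNF+ over TNF- log2 ratios on opposite sides of 0 in lung and synovium, with counting intervals that did not include 0, as had 15.6% of the 11987 genes tested in both. With 1 library per group the difference between tissues was not tested. For 8 of them the synovial ratio was above 0 and the lung ratio below 0: Atp6v1c1 (1.71 and -0.15), Atp6v1d (1.69 and -0.11), Atp6v1h (1.05 and -0.24), Atp6v1e1 (1.02 and -0.07), Atp6v1g1 (1.0 and -0.15), Atp6v1a (0.90 and -0.18), Atp6v1b2 (0.69 and -0.46) and Atp6v0d1 (0.54 and -0.42). Lgmn went the other way, with -0.18 in the synovium and 0.35 in the lung. The 8 genes are 7 of the 8 V1 genes and 1 of the 7 V0 genes. The negative lung ratios were those of the mixed class: the summed V1 sector was at -0.14 in the class and at 0.10, 0.24, 0.10 and 0.17 within the subtypes compared, namely alveolar macrophage-like, C1q macrophage-like, nonclassical monocyte-like and classical monocyte-like cells. They also depend on the scaling: relative to the median of all genes, -0.17 in the lung and -0.32 in the synovium, the lung ratios of Atp6v1c1, Atp6v1d, Atp6v1e1 and Atp6v1g1 and the synovial ratio of Lgmn lie above 0, so these 5 genes no longer have opposite signs.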

How the results depend on the processing

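No paired analysis was possible because each group has 1 library and no test was made, and leaving out a library leaves no comparison. The ratio of the sum in synovial macrophage-like cells, 0.71, was 0.64 with at most 5000 genes per cell, 0.67 without the highest Scrublet scores, 0.62 with equal weights, 1.03 centred on all genes, 0.66 without Ctss and 1.14 with dendritic cell-like cells added. The lung ratio, 0.13, was -0.17 with at most 5000 genes, 0.12 without the highest Scrublet scores, -0.08 with equal weights, 0.30 centred, 0.15 without Ctsd, -0.15 without cells passing the rule and 0.18 with dendritic cell-like cells added. The ratio of the rule cells, 0.10, was -0.06 with at most 5000 genes, 0.08 with at most 10% mitochondrial UMIs, 0.14 with equal weights, -0.15 centred, -0.19 and 0.31 with 2 and 10 UMIs of each marker, 0.30 without Ctss and 0.26 for the Acp5 Mmp9 cluster. Of the genes at least 2-fold higher, centring gave 1 in place of 0 in the lung. In the rule cells 8 became 1 with at most 5000 genes, 4 when centred, 2 and 13 with 2 and 10 UMIs, and 13 for the Acp5 Mmp9 cluster. Shares of all genes are given above for the main settings and the Acp5 Mmp9 cluster only, so the other counts have no background. With 2 UMIs, 91 of 217 cells passing were mesenchyme-like, with 10 UMIs 1 of 75. The cause of the other shifts was not tested. The signs of the V-ATPase and protease sums and of the 8 genes with the largest absolute log2 ratios in each main comparison were followed. Of 260 values under alternatives 253 kept their sign, and the 7 that did not were all lung values. The V-ATPase sum, -0.01, was at 0.16 centred and 0.03 with dendritic cell-like cells. The protease sum, 0.18, was at -0.24 with at most 5000 genes, -0.08 with equal weights and -0.14 without cells passing the rule. Ctsl, 0.39, was at -0.29 with at most 5000 genes and -0.02 with equal weights. The genes were picked for large ratios, which favours a kept sign. Ratios outside this selection, such as the lung ratio of Atp6v1e1 flagged above, changed sign when centred. The alternatives on the Acp5 Mmp9 cluster, the cells passing the rule and the dendritic cell-like cells were chosen after seeing the data. Clcn7, Ctsf and Tfeb rest on few UMIs.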
